A study of Brassica napus with 12 samples.

Results

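A set of 62 genes was read steadily in root tips of the oilseed rape variety Duplo and was at or next to 0 counts in root tips of the variety Drakkar. The genes were chosen by a rule on the deposited read counts. A gene had to reach at least 5 CPM (reads of the gene per 1000000 reads on genes) in each of the 6 Duplo libraries and to have at most 3 counts in each of the 6 Drakkar libraries. Of 101038 genes counted, 23899 met the Duplo part of the rule, and the 62 genes were 0.259% of these. The level in Duplo and the near absence in Drakkar were therefore used to choose the genes and are described here without a test. The difference between temperatures within Duplo was not used as such by the rule and was tested. However, the 5 CPM asked for at both temperatures leaves out genes that fall under it at either.

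The study compared root tips of both varieties grown under optimal and warm conditions. Seeds of *Brassica napus* (both varieties are spring oilseed rape) were germinated for 3 days, and the seedlings were kept for 7 days at 21 °C or at 29 °C. Each of the 4 groups (Drakkar at 21 °C, Drakkar at 29 °C, Duplo at 21 °C, Duplo at 29 °C) had 3 libraries, and each library came from pooled seedlings. The labels name no transgene or mutation, and each variety is 1 genotype.

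*B. napus* is an allotetraploid that combines an A and a C subgenome, so most genes have a near-identical homoeologous copy on the other subgenome. Varieties of this species are known to differ in which genes they carry, and segments are known to have been exchanged between homoeologous chromosomes, for example between A05 and C05. The reads of both varieties were counted on the genes of 1 reference genome. RNA counts do not separate a gene that is missing from a variety, a gene that is silent there and a gene whose reads failed to align, and these cannot be told apart in what follows. Reads of homoeologous copies can be assigned to the wrong copy, so the counts of each gene carry this uncertainty.

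From 26554987 to 39934384 reads fell on genes in each library. At these depths 5 CPM corresponded to between 133 and 200 counts, and 3 counts to between 0.0751 and 0.113 CPM. No pair of libraries of a group agreed within sampling noise, since their chi-square divided by its degrees of freedom ran from 7.57 to 56.8. The highest values, 56.8 and 45.9, were those of Duplo 29 °C replicate 3 against the other libraries of its group. None of 13 marker loci of root and shoot cell types could be matched to the gene identifiers, so the labelled tissue was not checked against its markers. In such bulk samples, fewer cells of a type and less RNA per cell cannot be told apart.

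Few of the 62 genes could be named. The 2 genes with an entry in the RefSeq table, BnaA08g26230D and BnaC04g27960D, are protein coding, and their symbols only repeat the identifier. None of the 62 had an Arabidopsis locus in the tables at hand. No function is therefore given to any of them, and the genes are described by their identifier, which holds the subgenome, the chromosome and an order number. Identifiers with nn in place of the chromosome number belong to sequence that was not placed on a chromosome.

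In Duplo the 62 genes were moderately covered. Mean values over the 6 Duplo libraries ran from 5.90 to 36.5 CPM with a median of 12.1 CPM, and 9 genes reached 20 CPM. All genes that met the Duplo part of the rule had a median of 17.9 CPM, and the median of the 62 genes lay at the 31.4th percentile of these genes. No gene of the set lay above the 75.8th percentile. CPM values are not divided by transcript length, so this order is one of reads and not of transcript number. The lowest count of any of the 62 genes in any Duplo library was 149.

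The highest read share belonged to BnaC08g45610D, on C08. It had 40.3, 37.1 and 40.8 CPM in the Duplo libraries at 21 °C and 28.6, 32.6 and 39.8 CPM at 29 °C, whereas all 6 Drakkar libraries had 0 counts. Its values at the 2 temperatures overlapped. BnaC02g09160D followed with 31.7, 27.2 and 31.6 CPM in its libraries at 21 °C and 37.8, 31.9 and 27.7 CPM in those at 29 °C. Its only read in Drakkar was 1 count, in replicate 3 at 29 °C.

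BnaCnng06200D, on unplaced C sequence, had 25.9, 27.8 and 25.2 CPM in its libraries at 21 °C and 31.1, 30.7 and 29.6 CPM in those at 29 °C. Its 3 libraries at 29 °C all lay above those at 21 °C. BnaA01g35100D was the highest of the genes placed on the A subgenome, with 22.3, 20.8 and 23.1 CPM in its libraries at 21 °C and 23.7, 21.4 and 25.4 CPM in those at 29 °C. BnaC05g47540D was the highest on C05, with 16.3, 23.0 and 20.4 CPM in its libraries at 21 °C and 28.2, 23.9 and 23.0 CPM in those at 29 °C. The other genes among the 10 with the highest mean were BnaC04g35900D at 26.8 CPM, BnaC06g18110D at 24.2 CPM, BnaAnng29280D at 21.6 CPM, BnaCnng64520D at 21.5 CPM and BnaC02g43630D at 18.2 CPM.

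**Figure D1:**
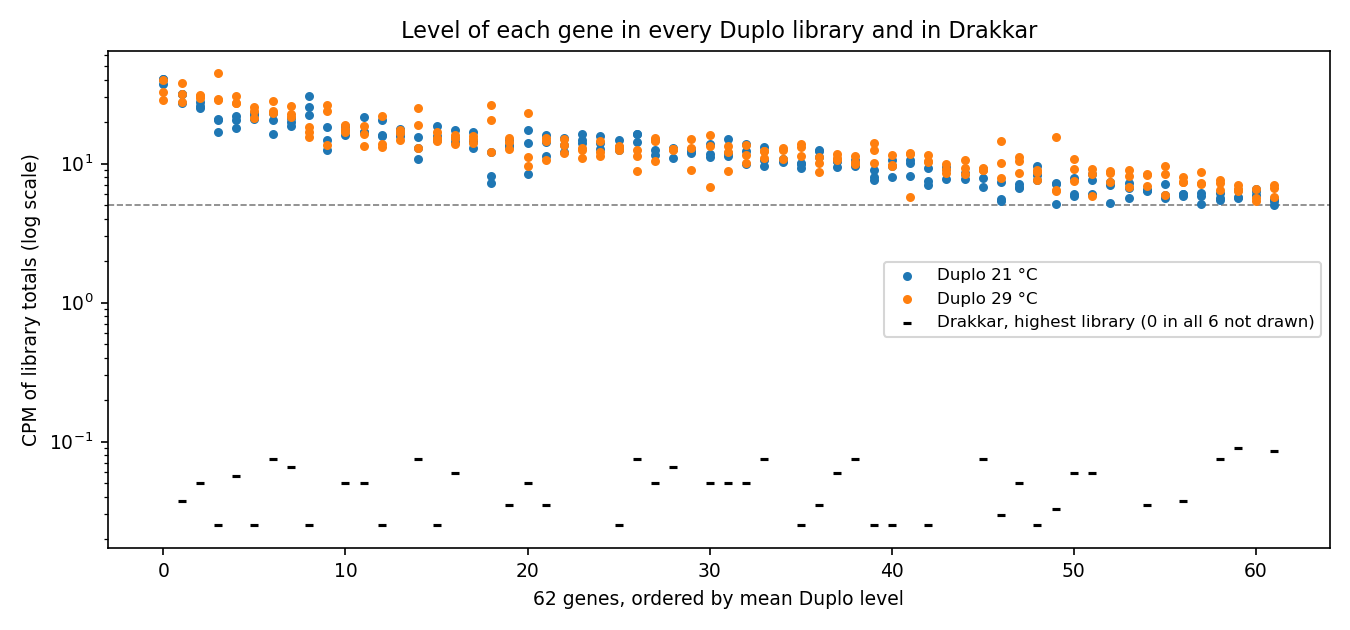
CPM of library totals on a log axis for the 62 genes, ordered by mean Duplo level, with the 3 Duplo libraries at 21 °C in blue, the 3 at 29 °C in orange and the highest Drakkar library as a black dash (not drawn for the 18 genes at 0 in all 6). The dashed line marks the 5 CPM of the rule, and every Drakkar dash lies under 0.113 CPM.

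Most of the 62 genes varied little among the Duplo libraries. The coefficient of variation over the 6 libraries had a median of 13.7%, beside 14.5% for all genes that met the Duplo part of the rule. The lowest value was 5.53% in BnaA03g43600D, with 10.1, 9.62 and 10.6 CPM in its libraries at 21 °C and 11.3, 9.98 and 10.2 CPM in those at 29 °C. BnaCnng47090D followed with 5.61%. At the other end, BnaCnng45420D had a coefficient of variation of 51.7%, with 7.29, 12.2 and 8.18 CPM in its libraries at 21 °C and 20.4, 12.1 and 26.3 CPM in those at 29 °C. BnaC02g34860D had 47.1%, and here 1 library decided the value. It had 15.5 CPM in Duplo 29 °C replicate 3, whereas the other 5 Duplo libraries lay between 5.16 and 7.23 CPM.

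In Drakkar, the 62 genes together had 134 counts over 6 libraries, against 149078 in Duplo. The pooled Drakkar level was 0.0832% of the Duplo level. The summed values of the set were 766.7, 804.5 and 802.4 CPM in the Duplo libraries at 21 °C and 864.8, 845.0 and 887.1 CPM at 29 °C. In Drakkar the summed counts were 16, 62 and 21 at 21 °C and 14, 11 and 10 at 29 °C. Drakkar 21 °C replicate 2 thus held 62 of the 134 counts. In that library 38 of the 62 genes had between 1 and 3 counts, whereas in each of the other Drakkar libraries between 7 and 12 genes had any. It was also the most deeply sequenced library, but its summed level, 1.55 CPM, was above the 0.373 to 0.626 CPM of the other 5. The part of this library in the Drakkar counts was not tested beyond leaving it out.

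Of the 62 genes, 18 had 0 counts in all 6 Drakkar libraries, 13 had 1 count in all, 16 had 2 or 3 and 15 had between 4 and 9. For the 18 genes at 0, a floor of 3 counts over the Drakkar libraries puts the Duplo level at least 395-fold higher in BnaA09g16260D and at least 2376-fold higher in BnaC08g45610D, the lowest and highest of these bounds. For the 44 genes with counts, the ratio of pooled levels ran from 138 to 6117 with a median of 1004. The smallest ratio was 138 (95% interval 72.8 to 302.0) in BnaA08g26230D, with 2, 2 and 2 counts in Drakkar at 21 °C and 1, 0 and 2 at 29 °C. The largest was 6117 in BnaC02g09160D, where a single Drakkar read leaves a 95% interval from 1098 to 241600. These exact Poisson intervals cover only the counting error of the Drakkar reads, with the Duplo level held fixed. They rest on values that the rule used, so they are a description, and the replicates differed by more than counting error.

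The thresholds cut through a continuous range. Just inside the Duplo threshold lay BnaC02g13040D with a lowest Duplo library of 5.01 CPM and BnaC05g49170D with 5.13 CPM. Just outside it lay BnaC07g24530D with 4.99 CPM and BnaC03g63490D with 4.98 CPM, both at 0 counts in Drakkar. Just inside the Drakkar threshold lay BnaC05g47590D and BnaC05g48670D, with a highest Drakkar library of 3 counts and 8 and 7 counts over all 6. Just outside it lay BnaC03g65620D and BnaCnng73180D, each with 4 counts in Drakkar, all of them in 21 °C replicate 2. Among genes that met the Duplo part of the rule, 44 had a highest Drakkar count between 4 and 10, 45 between 11 and 30 and 110 between 31 and 100, whereas 23638 exceeded 100 counts.

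When 1 Drakkar library was left out of the rule, that library could be read without having been used. With Drakkar 21 °C replicate 3, 29 °C replicate 1 or 29 °C replicate 2 left out, the same 62 genes were chosen, and none of them exceeded 3 counts in the library left out. Leaving out 21 °C replicate 1 chose 64 genes, of which 2 exceeded 3 counts there, and leaving out 29 °C replicate 3 chose 65 genes, of which 3 did. Leaving out Drakkar 21 °C replicate 2 chose 77 genes, and 15 of them exceeded 3 counts in that library, with at most 14. The summed level of all 77 genes in that library was still only 0.286% of their Duplo level. BnaA03g43580D, for example, had 70.6 CPM on average in Duplo and 7 counts in Drakkar 21 °C replicate 2, with 1 count over the other 5 Drakkar libraries. It was singled out after its values were seen.

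The choice was also made from 1 temperature at a time. The libraries at 21 °C alone chose 75 genes, and at 29 °C 72 of these met the Drakkar part of the rule and 65 the Duplo part. The libraries at 29 °C alone chose 107 genes, and at 21 °C 83 of these met the Drakkar part and 85 the Duplo part. The 62 genes are those chosen at both temperatures, so a gene that falls under 5 CPM in Duplo at either temperature cannot be among them.

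A neighbouring pair was lost from the set through 1 Duplo library. BnaA01g17260D had 0.415 CPM in Duplo 21 °C replicate 1, whereas it had 9.15 and 7.28 CPM in the other libraries at 21 °C and 9.02, 10.2 and 9.73 CPM at 29 °C. BnaA01g17280D, 2 identifiers further on, had 0.8003 CPM in Duplo 21 °C replicate 1 and between 6.91 and 10.8 CPM in the other 5. Both were singled out after their values were seen, and each met the rule once that library was left out. The other 4 genes gained without Duplo 21 °C replicate 1 were not under 1 CPM in it.

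The next question was whether the 62 genes responded to the warm temperature in Duplo. All 62 were among the 51673 genes tested. The main test was edgeR's quasi-likelihood test with Benjamini-Hochberg adjustment over all genes tested. With it, 0 of the 62 passed an adjusted p-value of 0.05 with an absolute log2 fold change above 1. The study used this threshold, but with DESeq2. Among all genes tested edgeR made this call for 1 gene, or 0.00194%. At an unadjusted p-value under 0.05, 15 of the 62 genes passed with edgeR, 11 of them higher at 29 °C and 4 lower, where the background was 19.9% of all genes tested, with 9.88% higher and 10% lower. DESeq2 called 1 of the 62 genes at the same adjusted threshold, where it called 1.8% of all genes tested, and 11 of the 62 had an unadjusted p-value under 0.05 with DESeq2, beside 18.2% of all genes tested. At an adjusted p-value of 0.05 with no minimum fold change, DESeq2 called 3 of the 62, beside 5.52% of all genes tested.

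The log2 fold changes of the 62 genes were small, as were most of those of all genes that met the Duplo part of the rule. They ran from -0.67 to 1.05 with a median of 0.06 and quartiles of -0.07 and 0.30. The 5 CPM that the rule asks for at both temperatures limits how far such genes can fall. This cut was not asked of all genes tested. All genes tested had a median of 0.04, and all genes that met the Duplo part of the rule had a median of -0.015 with quartiles of -0.22 and 0.20. Of the 62 fold changes, 39 were above 0 and 23 below, 54 were under 0.5 in size and 1 was above 1, beside 6.55% of all genes tested. Their standard errors had a median of 0.14. The 3 libraries at 29 °C all lay above the 3 at 21 °C in 14 genes, where the background was 13.8% of all genes tested, and all below them in 4 genes, where it was 14.5%. The values of the other 44 genes overlapped, so 28.4% of all genes tested is the background of no overlap in either direction. Without Duplo 29 °C replicate 3, the library that stood apart, 18 genes were higher without overlap and 8 lower, beside 21.3% and 21.1% of all genes tested.

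The lowest fold change was that of BnaCnng64520D. It had 25.6, 22.2 and 30.8 CPM in its libraries at 21 °C and 18.4, 16.7 and 15.5 CPM in those at 29 °C, so that every library at 29 °C lay below every library at 21 °C. The log2 fold change was -0.67 with a standard error of 0.14, and the adjusted p-value was 0.106 with edgeR and 0.00467 with DESeq2. BnaC05g47590D had 16.4, 14.2 and 16.3 CPM in its libraries at 21 °C and 11.3, 12.6 and 8.77 CPM in those at 29 °C. Its log2 fold change was -0.56 with a standard error of 0.15 (edgeR, adjusted p-value 0.139). BnaC05g47470D and BnaC08g04100D, with log2 fold changes of -0.35 and -0.31, were the other genes whose libraries at 29 °C were all lower.

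Of the genes with higher values at 29 °C, BnaCnng45420D was the one that DESeq2 called. Its log2 fold change was 1.05 with a standard error of 0.33 and an adjusted p-value of 0.167 with edgeR, and 1.04 with an adjusted p-value of 0.0398 with DESeq2. Its values overlapped between the temperatures, since replicate 2 at 29 °C with 12.1 CPM was no higher than replicate 2 at 21 °C with 12.2 CPM. BnaC04g35900D had 16.8, 20.7 and 21.0 CPM in its libraries at 21 °C and 29.2, 28.6 and 44.5 CPM in those at 29 °C. There was no overlap, and its log2 fold change was 0.77 with a standard error of 0.21 and an adjusted p-value of 0.137 with edgeR and 0.0231 with DESeq2. The highest library was Duplo 29 °C replicate 3 in both BnaCnng45420D and BnaC04g35900D, and without it their log2 fold changes were 0.78 and 0.53 (edgeR, adjusted p-values 0.183 and 0.0745).

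BnaC05g47570D had 5.39, 7.37 and 5.58 CPM in its libraries at 21 °C and 10.1, 7.91 and 14.5 CPM in those at 29 °C, and the log2 fold change was 0.79 with a standard error of 0.26 (edgeR, adjusted p-value 0.179), or 0.52 without Duplo 29 °C replicate 3. BnaA09g52120D had 7.65, 8.03 and 8.98 CPM in its libraries at 21 °C and 13.97, 10.1 and 12.6 CPM in those at 29 °C (log2 fold change 0.54). BnaC04g27960D had 6.70, 7.10 and 6.75 CPM in its libraries at 21 °C and 8.55, 10.5 and 11.2 CPM in those at 29 °C (log2 fold change 0.52). In each of these genes the temperatures did not overlap, and none passed the adjusted threshold with either tool. No temperature response could be measured for the 62 genes in Drakkar, where each library had at most 3 counts of any of them.

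**Figure D2:**
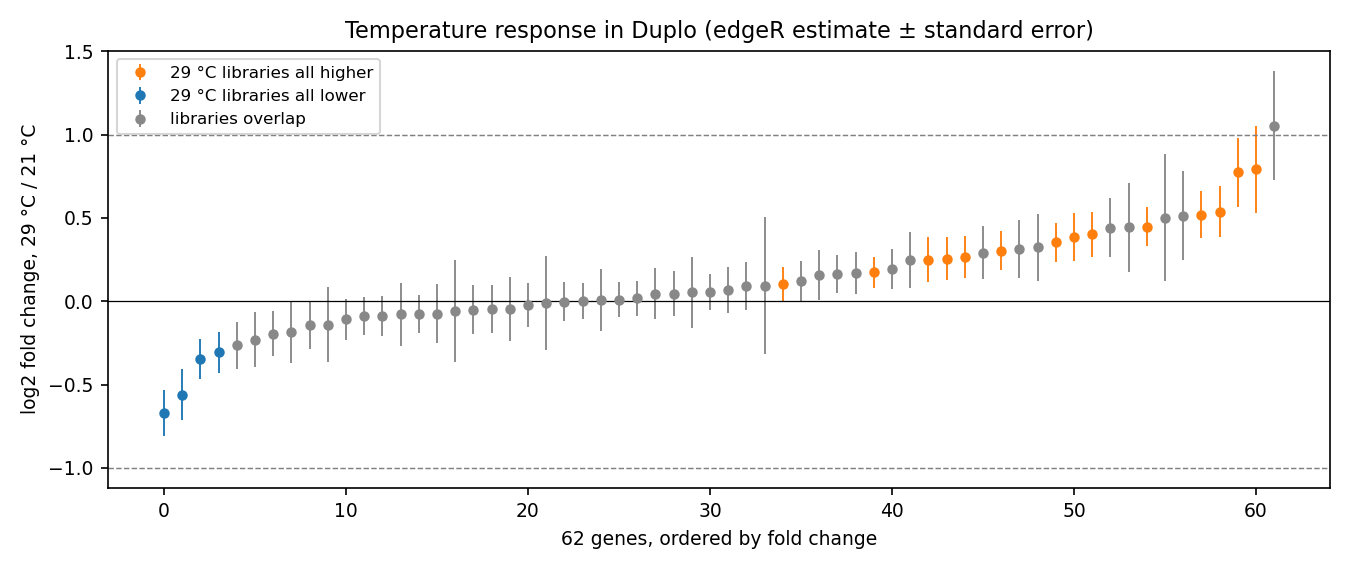
The log2 fold change of each of the 62 genes in Duplo at 29 °C against 21 °C, as edgeR estimate with its standard error, ordered by value, with 3 libraries at each temperature. Orange marks the 14 genes whose libraries at 29 °C were all higher, blue the 4 whose libraries were all lower and grey the 44 with overlap, and 1 estimate lies above the dashed line at 1.

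The 62 genes were unevenly spread over the chromosomes. The placed A chromosomes held 11 of them, the placed C chromosomes 39 and unplaced sequence 12. These were 0.101%, 0.359% and 0.555% of the genes that met the Duplo part of the rule there. C05 alone held 16 genes, 1.23% of its 1304 genes at that level, and C06 followed with 6 genes. The C chromosomes without C05 held 23 genes, or 0.241%. None of the 62 lay on A02, A05, A07, A10 or C03.

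For comparison, the same rule with the varieties exchanged chose 88 genes, 0.355% of the genes that reached 5 CPM in all Drakkar libraries. Of these, 18 lay on C03, where the Duplo set had 0, and 1 lay on C05, where the Duplo set had 16. Unplaced C sequence held 22 of the 88 and 9 of the 62. Because both sets were chosen from the same values of the varieties, these counts are given as a description.

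**Figure D3:**
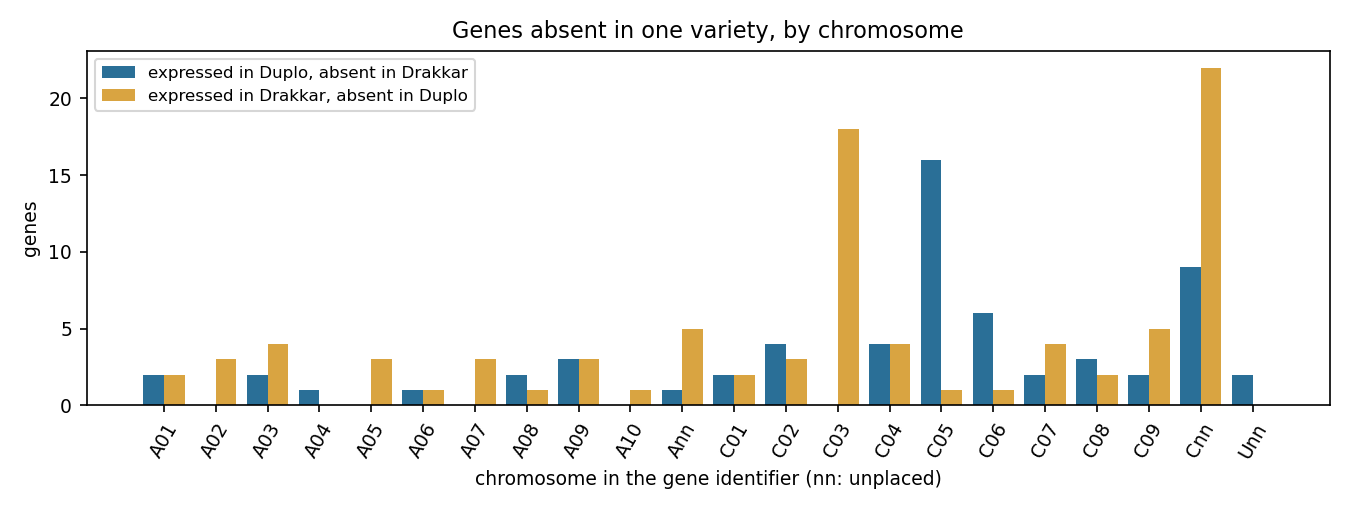
Number of genes per chromosome, as named in the gene identifier, for the 62 genes at 5 CPM or more in Duplo and at most 3 counts in Drakkar (blue) and the 88 genes of the exchanged rule (yellow). The blue bar is highest on C05 with 16 genes, and the yellow bars are highest on unplaced C sequence with 22 and on C03 with 18.

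Runs of neighbouring genes were sought along the order of the identifiers, which rise in steps of 10 from gene to gene. A run was taken as at least 3 genes of the set, each at most 10 identifiers from the next. There were 2 runs with 8 genes, both on C05. The first held 5 genes from BnaC05g47470D to BnaC05g47660D within 20 identifiers, and the second held 3 genes from BnaC05g48610D to BnaC05g48670D within 7. The exchanged rule gave 3 runs with 17 genes, on C03 and on unplaced C sequence, and the longest of them had 9 genes.

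In the first run, BnaC05g47470D, BnaC05g47540D, BnaC05g47570D, BnaC05g47590D and BnaC05g47660D did not move together between the temperatures. BnaC05g47570D had a log2 fold change of 0.79 and BnaC05g47590D, 2 identifiers further on, of -0.56. BnaC05g47540D had 0.29, BnaC05g47470D had -0.35 and BnaC05g47660D, with 13.0, 16.8 and 14.5 CPM in its libraries at 21 °C and 14.1, 15.0 and 15.7 CPM in those at 29 °C, had -0.02. In Drakkar, BnaC05g47470D and BnaC05g47660D had 0 counts in all libraries. In the second run, BnaC05g48610D, BnaC05g48660D and BnaC05g48670D had mean values of 12.1, 7.25 and 16.0 CPM in Duplo and log2 fold changes of -0.19, 0.25 and 0.51. None of these 8 fold changes passed the adjusted threshold with edgeR or DESeq2.

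The 62 genes and those around them were then compared between the varieties in windows of 50 identifiers. Each window had at least 8 expressed genes (at least 1 CPM in every library of either variety). The measure was the median log2 ratio of the mean CPM in Drakkar to that in Duplo, with 0.1 CPM added to each. Over 2007 windows the median of this value was 0.026. It was under -2 in 6 windows, and the next lowest window had -1.05. Of the 6 windows, 5 followed each other on C05, from number 46500 to 48990, with medians of -2.84, -3.19, -5.52, -2.87 and -3.48. The other, on unplaced C sequence from number 6000 to 6490, had a median of -3.72. These windows held 16 of the 62 genes, 13 on C05 and 3 on unplaced C sequence. The genes of the set, chosen for their near absence in Drakkar, are part of these medians and help to lower them. The window on C05 with -2.87 held 0 of them, and the one with -5.52 held 5 among its 19 expressed genes. The stretches were marked out after their values were seen and are described without a test.

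Within the C05 stretch, 117 of 250 identifiers were counted as expressed in Duplo, each with a mean of at least 1.2 CPM there. Genes that reached 1 CPM in Drakkar alone counted in the windows above, but not in the levels and shares of the stretches. This choice leans toward lower levels in Drakkar. Besides the 13 genes of the set, the other 104 had a median Drakkar level of 8.18% of the Duplo level, and 58 of them, or 55.8%, lay under 12.5%. Among the 39985 genes counted in this way over all windows, 1.35% lay under that level. Of the 104 genes, 22 had more than 50% of the Duplo level in Drakkar. The grid of 50 identifiers overran the low part at its ends, where 9 of the 22 lay before BnaC05g46700D and 3 after BnaC05g48760D, the first and last of the 104 under 12.5%. Between these, 10 of 92 genes had more than 50%. The summed CPM of the 104 genes was between 628 and 728 in the Drakkar libraries and between 3057 and 3496 in the Duplo libraries. The varieties did not overlap in this sum, but the windows were chosen by the ratio of these same libraries, so this is a description. On either side of the stretch the levels of genes outside the set were alike. Their median Drakkar level was 103.9% of the Duplo level over 149 genes next before it and 104.1% over 87 next after it. BnaC05g49170D of the set, which also lay next after it, was not among the 87.

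The window on unplaced C sequence was also low in Drakkar. BnaCnng06020D, BnaCnng06070D and BnaCnng06200D of the set lay there, and the other 20 expressed genes had a median Drakkar level of 11.7% of the Duplo level, with 5 of them above 100%, where 4 of the 104 genes on C05 were. The windows next before and after it in number had medians of -0.02 and 0.02. Within the low window, the summed CPM of the other 20 expressed genes was between 124.3 and 152.2 in Drakkar and between 403 and 459 in Duplo. The identifiers do not tell where on the C chromosomes this sequence belongs.

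On A05, the homoeologue of C05, no gene of the set was found, but 3 windows in a row, from number 32000 to 33490, had medians of 0.92, 0.94 and 0.82. A median above 0.8 was found in 20 of the 2007 windows, with 11 on C03, 3 on A05, 3 on unplaced C sequence, 2 on C08 and 1 on C09, and 14 of the 20 exceeded 2. The A05 windows were singled out after their values were seen, because C05 is the homoeologue. Their 78 genes counted as expressed in Duplo had a median Drakkar level of 188% of the Duplo level, and 75 of them lay above 100%. The summed CPM of the 78 genes was between 2820 and 3118 in Drakkar and between 1573 and 2062 in Duplo. The varieties again did not overlap, in windows chosen by the values of these same libraries. Genes of the other A05 windows had a median of 99.8%. Arabidopsis loci were at hand for few genes of these regions, with 1 gene within each stretch, and do not set their bounds. BnaC05g45900D before the C05 stretch and BnaC05g48870D within it were paired with AT3G05930 and AT3G01500. BnaC05g48870D lay beyond the last of the low genes and had 1.96 CPM on average in Drakkar and 0.264 CPM in Duplo, opposite to the stretch. On A05, BnaA05g31100D before the stretch, BnaA05g32500D within it and BnaA05g33820D after it were paired with AT3G06210, AT3G03270 and AT3G01490, whereas BnaA05g33670D between the latter genes was paired with AT1G61270, on another Arabidopsis chromosome. Whether the higher values on A05 and the lower values on C05 belong together was not tested.

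**Figure D4:**
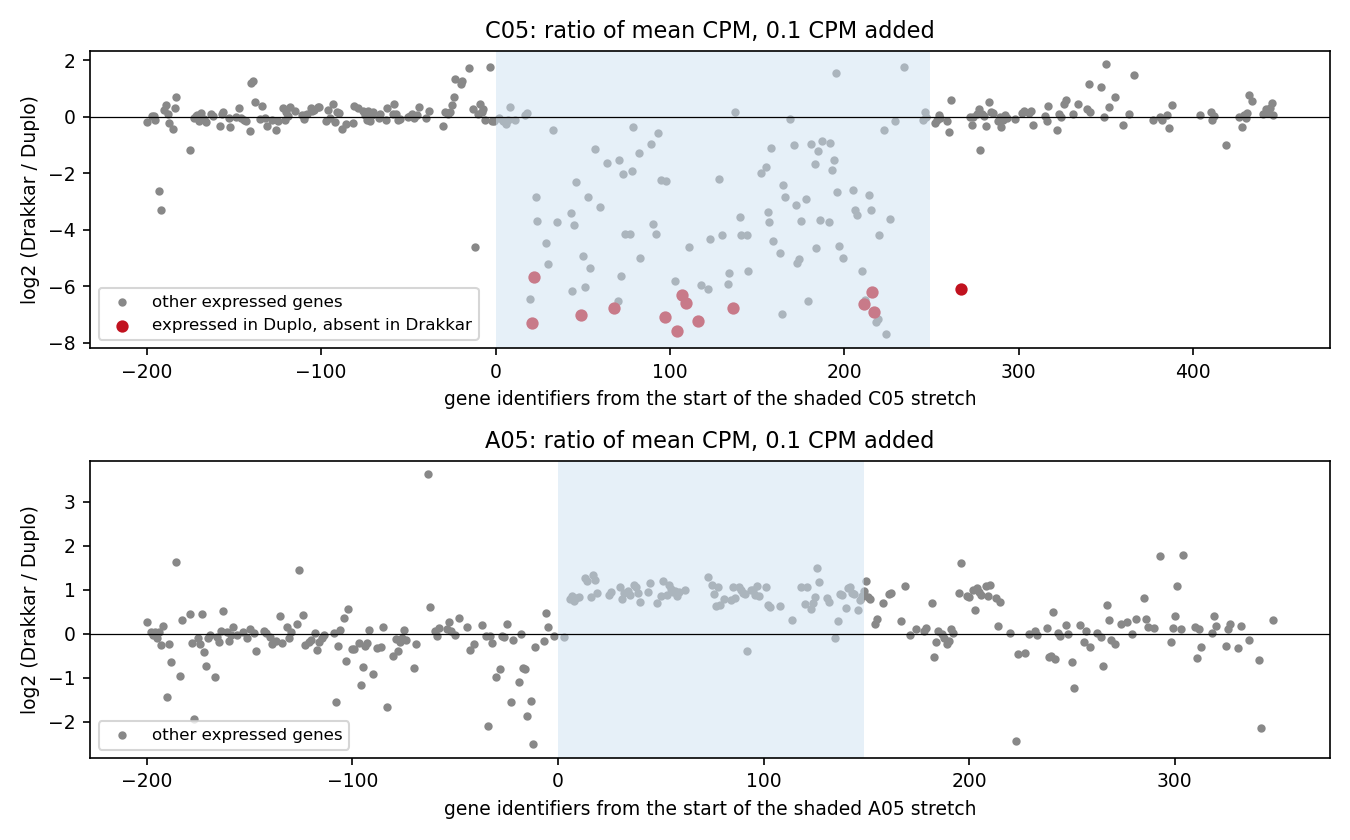
The log2 ratio of mean CPM in Drakkar to that in Duplo (6 libraries each, 0.1 CPM added) for expressed genes, against their distance in gene identifiers from the start of the shaded stretch on C05 (upper panel) and A05 (lower panel). Genes of the set are red, and the shaded genes fall below 0 on C05, with exceptions. On A05, 75 of the 78 shaded genes that were expressed in Duplo lie above 0, and genes expressed in Drakkar alone are drawn as well.

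The other 46 genes of the set were mostly surrounded by genes at a like level in both varieties. Within 10 identifiers on each side of them, 366 expressed neighbours were counted, and 27 of these, or 7.38%, had a log2 ratio under -2. Among all 42778 expressed genes, 2.05% did. The median log2 ratio of the neighbours lay within 1 of 0 for 42 of the 46 genes. Around the 16 genes in the low stretches, 102 of 121 neighbours, or 84.3%, had a ratio under -2. This high share followed from the choice, since the stretches were marked out by a median of the same ratio under -2. Neighbours of nearby genes of the set were counted for each of them.

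Of the 46 genes outside the low stretches, only BnaC01g18700D and BnaC01g18730D had another gene of the set within 10 identifiers. BnaC01g18700D lay between 11.9 and 15.3 CPM in the Duplo libraries and BnaC01g18730D between 14.5 and 18.6 CPM. In both genes the temperatures overlapped, and in Drakkar they had 0 counts and 1 count over all libraries. All 22 of their expressed neighbours, some counted for both genes, lay within 1 of 0 on the log2 scale. BnaC05g49170D, just beyond the C05 stretch, likewise had 8 of 8 neighbours within 1 of 0, while it had 0 counts in all Drakkar libraries and between 5.13 and 8.63 CPM in Duplo. Of the other C05 genes outside the stretch, BnaC05g10690D had 1 count in Drakkar and BnaC05g32080D had 0.

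The neighbours of BnaC08g04100D, BnaC09g39490D, BnaCnng44570D and BnaUnng04440D were the exceptions. They had medians of -2.58 over 3 neighbours, -5.32 over 1, -1.86 over 4 and 2.41 over 2, so each rests on few genes.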

How the data were processed

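Poly(A) RNA from root tips of Drakkar and Duplo was sequenced in 12 libraries, 3 for each variety and temperature, which were grouped by their labels. The authors aligned the reads with HISAT2 and deposited, for each variety, the count of reads on each gene without normalization. The counting program, its strand setting and its treatment of reads with several alignments are not given in the sources used here. The root tips measured 1 cm per the labels, and the study's methods give a shorter length. A row without a gene name, with at most 2 counts per library, was left out. The authors also deposited fold changes and p-values of their own DESeq2 comparisons, which were not used.

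CPM are counts divided by the column total. Temperatures were compared within Duplo with edgeR's quasi-likelihood test (filterByExpr, TMM, estimateDisp, glmQLFit, glmQLFTest) and Benjamini-Hochberg adjustment. Overlap between temperatures was judged on TMM-scaled CPM, whereas the CPM values printed are those of column totals. The p-values weigh the difference between temperatures against the spread between pooled-seedling replicates. The fit was tested on simulated data. The versions were R 4.3.3, edgeR 4.0.16, DESeq2 1.42.0, Python 3.11.15, pandas 2.3.3, numpy 2.4.6, scipy 1.17.1 and matplotlib 3.10.9. The RefSeq table (Da-Ae) matched 3347 of 101038 identifiers and was used for names only.

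The rule, the lists and the alternatives (DESeq2, other scaling, filters, robust estimation, the replicate block, each library left out, other thresholds and gaps) were chosen with earlier results of these data known. Genes were named by a rule. It takes the 10 highest Duplo means, the 4 highest and 4 lowest fold changes without overlap, genes past the threshold, genes with a name, the ends of runs, the genes next to each threshold and the 2 highest and 2 lowest coefficients of variation. Other genes, singled out later, are named as neighbours of these, as extremes or as examples.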

Additional observations from a re-analysis of the deposited data

How the results depend on the processing

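The number of genes was set by the thresholds. It was 169 at 2 CPM in Duplo, 27 at 10 CPM, 18 with 0 counts required in Drakkar, 106 with at most 10 counts allowed and 64 with TMM-scaled library sizes, and C05 held 27, 5, 5, 28 and 17 of these. With 1 library left out of the rule it was between 62 and 77. DESeq2 called 1 gene for temperature, whereas edgeR called 0 with other scaling, other filters, robust estimation, no minimum fold change, the replicate block or any Duplo library left out. In the main fit edgeR called only 1 of all 51673 genes tested, or 0.00194%. The counts of 0 therefore do not show that the 62 genes lacked a response. The share over all genes is not given for the other edgeR settings. With edgeR the unadjusted p-value was under 0.05 in 7 genes without Duplo 21 °C replicate 1, in 9 without replicate 3 and in 16 without Duplo 29 °C replicate 3, beside 11.5%, 13.5% and 23.3% of all genes tested. Without that last library, 8 genes were lower without overlap in place of 4, and 18 higher in place of 14. On library totals 16 were higher and 4 lower, beside 16.6% and 12.2% of all genes tested. Deviations of same-numbered replicates had correlations of 0.020, -0.20 and -0.024, beside -0.082 to 0.12 for the other pairs. With 3 libraries per temperature this cannot show whether they shared a batch. With the replicate number as a block, 10 genes had an unadjusted edgeR p-value under 0.05, beside 16.2% of all genes tested. Runs held 6 genes at a gap of at most 5 identifiers, 12 at 20, and 5 where at least 5 members were required. The 9 genes whose fold changes were followed kept their direction in all 117 alternative values. Counts of at most 3 limit what can be said of Drakkar to bounds.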
